A study of Saccharomyces cerevisiae with 9 samples.

Results

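The nuclear genes for subunits of yeast cytochrome c oxidase were followed across all 9 libraries of a study of strains without eisosomes. The members are COX4, COX5A, COX5B, COX6, COX7, COX8, COX9, COX12 and COX13, chosen by gene name, 9 of the 6215 genes measured. All 9 had a mean of at least 10 normalized reads and were tested. Polyadenylated RNA of budding yeast was sequenced from 3 biological replicates of each of 3 haploid strains, which had grown in synthetic complete medium at 28 °C over 24 h without further treatment. A wash step at 10 mM is recorded for all 9 libraries. BY4742, the wild type, is a MATα laboratory strain with the markers his3Δ1, leu2Δ0, lys2Δ0 and ura3Δ0. The pil1Δ strain carried the same markers and pil1::kanMX4, and lacks Pil1, a main coat protein of eisosomes, the protein assemblies under furrows of the plasma membrane. The triple mutant, seg1Δ nce102Δ pil1Δ, also lacks the eisosome organiser Seg1 and the membrane protein Nce102. Its genotype lists his3Δ1, leu2Δ0 and ura3Δ0 with LYS2 and MET15, so by its label it differs from the other strains at LYS2 as well. No LYS2 read (0) was counted in the 6 libraries of the other strains, and the triple mutant replicates held 24790, 31688 and 35639 normalized LYS2 reads. No source used here says whether a mutant is a single isolate.

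Cytochrome c oxidase is the last enzyme of the respiratory chain, and passes electrons from cytochrome c to oxygen in the mitochondrial inner membrane. Its catalytic core is encoded in mitochondrial DNA, and the smaller subunits around the core come from nuclear genes. Subunit 5 has alternative genes in budding yeast: COX5A is known as the aerobic isoform, and COX5B as the isoform that is kept low by the heme-dependent repressor Rox1 while oxygen is plentiful. Many respiratory genes are activated by the Hap2/Hap3/Hap4/Hap5 complex, which binds CCAAT sequences, and whose limiting subunit Hap4 is low during growth on abundant glucose.

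COX5A and COX5B are shown first because the central comparison is between them. COX5A (YNL052W) lies at chrXIV:531725-532186 on the plus strand of the R64 genome, as 1 coding exon of 462 bases. COX5B (YIL111W) lies at chrIX:155222-155765 on the plus strand, with 456 coding bases in 2 exons. Their coding sequences were identical at 69.3% of 446 aligned bases. The longest identical run was 12 bases, and no other member had a similar coding sequence among the annotated genes. Coding reads longer than that run therefore differ between the genes by at least 1 base, and neither gene overlaps another annotated gene. The COX5B intron of 88 bases splits the start codon after its first base, and the sequence from chrIX:155222 to 155319 is shown because COX5A has no intron. Capitals mark coding bases.
COX5B start: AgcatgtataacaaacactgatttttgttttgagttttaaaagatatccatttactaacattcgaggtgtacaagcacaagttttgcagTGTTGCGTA

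The sequences upstream of COX5A, COX5B and COX4 follow, from 300 to 51 bases before the start codon, from the RefSeq R64 genome. COX4 is included as the member without CCAAT in its window. Capitals mark CCAAT or its complement ATTGG and ATTGTT, the core of the Rox1 site, or its complement AACAAT.
COX5A (chrXIV:531425-531674, plus strand): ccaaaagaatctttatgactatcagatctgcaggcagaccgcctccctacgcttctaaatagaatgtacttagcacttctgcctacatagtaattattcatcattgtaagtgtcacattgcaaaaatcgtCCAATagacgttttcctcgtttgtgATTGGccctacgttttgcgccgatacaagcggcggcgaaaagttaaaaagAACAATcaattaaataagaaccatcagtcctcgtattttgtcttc
COX5B (chrIX:154922-155171, plus strand): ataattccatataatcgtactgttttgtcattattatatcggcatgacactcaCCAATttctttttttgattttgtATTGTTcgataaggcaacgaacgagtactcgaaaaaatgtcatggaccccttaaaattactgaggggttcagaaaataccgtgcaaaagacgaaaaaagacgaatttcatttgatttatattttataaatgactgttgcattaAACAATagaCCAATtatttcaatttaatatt
COX4 (chrVII:150222-150471, minus strand): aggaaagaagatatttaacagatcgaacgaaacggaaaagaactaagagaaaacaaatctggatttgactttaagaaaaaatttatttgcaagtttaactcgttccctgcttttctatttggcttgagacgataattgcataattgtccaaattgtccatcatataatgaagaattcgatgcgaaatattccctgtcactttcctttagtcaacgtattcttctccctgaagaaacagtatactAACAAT

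In the full 300 bases before the start codon, searched on both strands, CCAAT occurred in 8 of the 9 members and in 42.1% of 5902 upstream windows of protein-coding genes. ATTGTT occurred in 6 of the 9 members, COX5A among them, and in 34.2% of all windows. COX5A had CCAAT at 170 to 166 and, on the other strand, at 145 to 141 bases before its start codon. COX5B had it at 247 to 243 and at 72 to 68. The letters of a Hap1 site (CGG, any 3 bases, TA, any 1 base, CGG) occurred in 0 of the 9 members and in 0.136% of all windows. The motifs searched do not overlap in these 3 sequences. Such matches describe letters only, since no binding was measured.

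The libraries held between 21064051 and 27014469 reads, recovered as whole numbers from the deposited values. A member was covered by 1292 to 23207 reads per library. The deleted genes followed the labels: PIL1 had 19215 normalized reads in the wild type, 114 in pil1Δ and 93.7 in the triple mutant on average, SEG1 had 6629, 6407 and 18.3, and NCE102 had 96494, 90795 and 204. Normalized reads are counts divided by 1 size factor per library. Among the triple mutant libraries, replicate 1 was the highest for 8 of the 9 members, while replicate 2 was the lowest for 9 of 9. The fold changes of the 8 rising members are also given without replicate 1, an omission that lowered each of them. Less RNA per cell and fewer cells with the RNA cannot be told apart in such bulk samples, and each level is relative to the other polyadenylated RNA of its library.

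In the triple mutant, 8 of the 9 subunit genes rose against the wild type, by 3.00-fold for COX12 to 7.84-fold for COX5A, and COX5B did not pass the test. No member passed the test in pil1Δ. The test was limma on log2(value + 1) with Benjamini-Hochberg adjustment over 5886 genes and a threshold of 0.05. The same rule called 30.1% of all tested genes higher and 60.9% in either direction in the triple mutant, so a called rise alone was common. These were 1770 genes higher and 1816 lower, and with libraries scaled by total reads 1029 and 2377, as that scaling moved the median log2 fold change of all tested genes to -0.23. The sizes were less common, since 7.95% of genes were called and at least 2-fold higher, as all 8 of these members were. The median log2 fold change was 2.01 over the 9 members and -0.01 over all tested genes. Over the members it was 1.82 without triple mutant replicate 1 and 2.22 without triple mutant replicate 2.

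**Figure D1:**
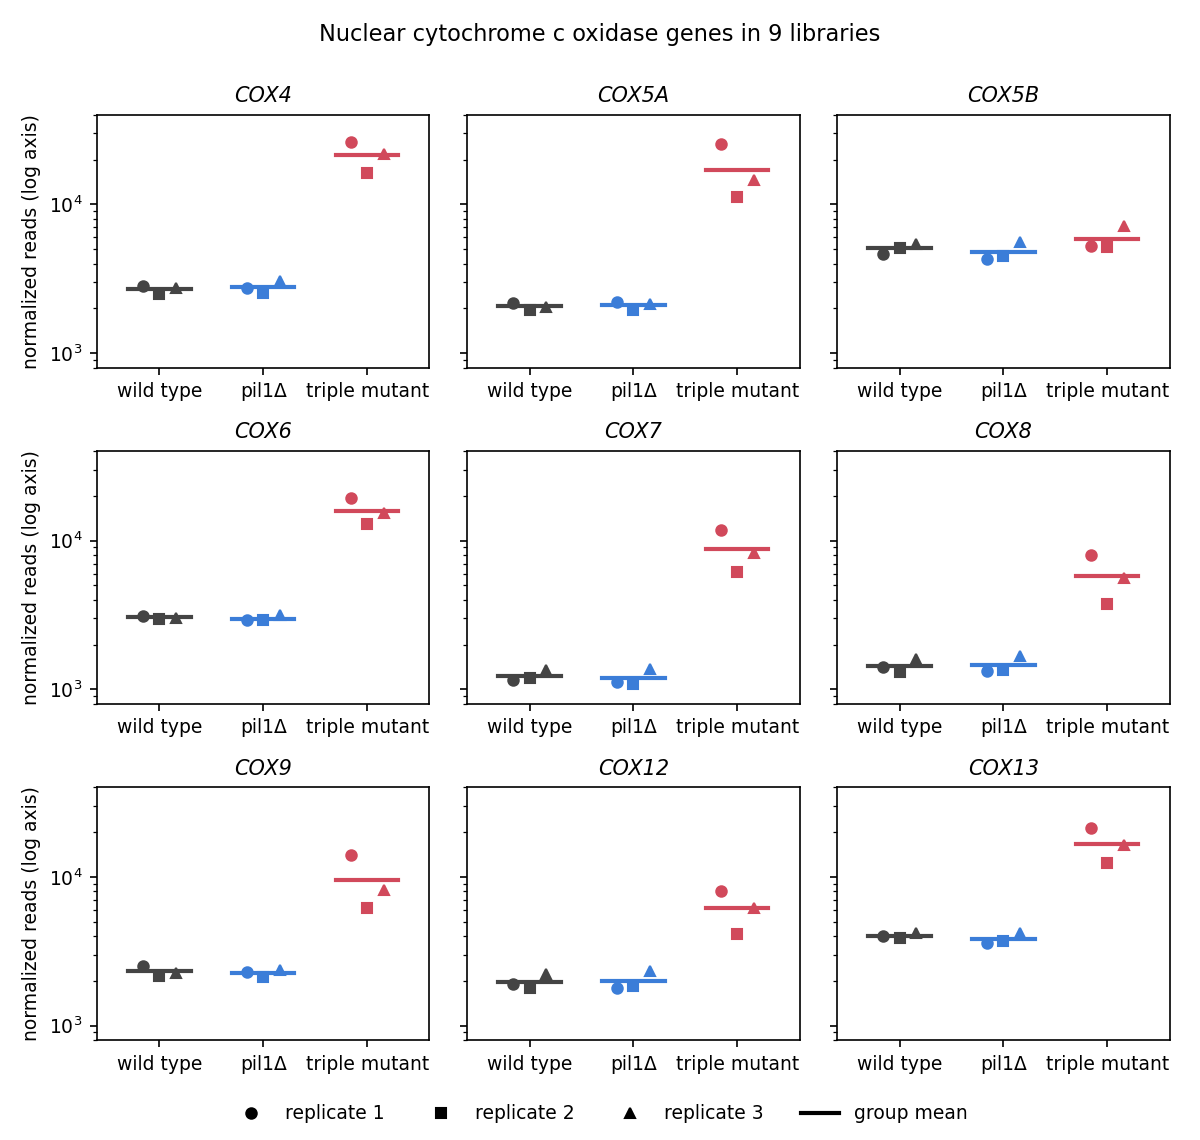
Normalized reads of the 9 nuclear subunit genes in every library, on a log axis shared by all panels. Each point is 1 library, its shape gives the replicate number, and the line is the mean of 3 libraries. The triple mutant lies above the other strains in every panel but that of COX5B, and its replicate 1 (circle) is usually the top point.

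The plot of normalized reads by library shows the pattern for each gene. COX5A, the aerobic isoform of subunit 5, which contacts the catalytic core through a membrane helix, had 2191, 1943 and 2050 normalized reads in wild type replicates 1 to 3. It had 2196, 1955 and 2132 in pil1Δ and 25585, 11188 and 14694 in the triple mutant. All triple mutant libraries lay far above the other 6, and replicate 1 lay far above the other triple mutant libraries. The log2 fold change of triple mutant over wild type was 2.97 (SE 0.25, limma adjusted p = 1.65e-05), and 2.64 without triple mutant replicate 1.

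COX5B, the hypoxic isoform, had 4668, 5128 and 5418 normalized reads in the wild type. It had 4289, 4515 and 5584 in pil1Δ and 5248, 5166 and 7207 in the triple mutant. The ranges of all 3 strains overlapped, with triple mutant replicate 3 the single high library. The mean in the triple mutant was 5874 ± 1155 (SD, n = 3) against 5072 ± 378 (SD, n = 3) in the wild type. The log2 fold change was 0.20 (SE 0.15, limma adjusted p = 0.286), a 1.15-fold difference with a 95% confidence interval of 0.904 to 1.45. With libraries scaled by total reads, the COX5B value turned to -0.03, which was 0.20 above the median of all tested genes under that scaling. COX5B thus stood at 2171 of 5886 when genes were ordered from the strongest rise, and COX5A at 47.

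COX4 (YGL187C, chrVII:149704-150171, minus strand) encodes a zinc-binding subunit on the matrix side that is needed to assemble the enzyme. Its normalized reads were 2840, 2515 and 2735 in the wild type, 2741, 2540 and 3057 in pil1Δ, and 26405, 16220 and 21705 in the triple mutant. It rose by 2.96 on the log2 scale (SE 0.16, limma adjusted p = 2.48e-06), or 2.80 without triple mutant replicate 1, with less spread between the triple mutant libraries than COX5A. COX6 (YHR051W, chrVIII:209705-210151, plus strand) encodes another matrix-side subunit. It had 3102, 2993 and 3041 normalized reads in the wild type, 2924, 2911 and 3148 in pil1Δ, and 19384, 12878 and 15411 in the triple mutant. Its rise was 2.36 on the log2 scale (SE 0.13, limma adjusted p = 2.7e-06), or 2.21 without triple mutant replicate 1, and its triple mutant libraries differed the least among the 8 genes that rose, by 1.51-fold from lowest to highest.

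COX7, COX8 and COX9 encode small subunits with a single membrane helix each. COX7 (YMR256C, chrXIII:778945-779127, minus strand) had 1161, 1189 and 1360 normalized reads in the wild type, 1124, 1084 and 1373 in pil1Δ, and 11856, 6107 and 8270 in the triple mutant. COX7 rose the most of these 3 genes, by 2.77 on the log2 scale (SE 0.21, limma adjusted p = 1.12e-05), or 2.53 without triple mutant replicate 1. COX8 (YLR395C, chrXII:909729-909965, minus strand) had 1408, 1315 and 1613 in the wild type, 1334, 1349 and 1669 in pil1Δ, and 7973, 3768 and 5634 in the triple mutant. COX9 (YDL067C, chrIV:334217-334396, minus strand) had 2520, 2169 and 2252 in the wild type, 2301, 2137 and 2367 in pil1Δ, and 14069, 6193 and 8174 in the triple mutant. COX8 and COX9 rose by 1.94 (SE 0.23) and 1.95 (SE 0.25) on the log2 scale, with limma adjusted p = 0.000119 and 0.000147. Both depended more on triple mutant replicate 1 than COX4 or COX6 did: without it their log2 fold changes were 1.68 and 1.62.

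COX12 and COX13 encode further subunits around the core. Cox12 faces the intermembrane space. COX12 (YLR038C, chrXII:224921-225172, minus strand) had 1918, 1787 and 2228 normalized reads in the wild type, 1781, 1844 and 2346 in pil1Δ, and 8050, 4131 and 6204 in the triple mutant. Its rise of 1.58 on the log2 scale (SE 0.22, limma adjusted p = 0.000285) was the smallest of the 8, and was 1.36 without triple mutant replicate 1. COX13 (YGL191W, chrVII:144808-145197, plus strand) had 3994, 3880 and 4195 in the wild type, 3570, 3713 and 4216 in pil1Δ, and 21119, 12393 and 16300 in the triple mutant. It rose by 2.01 (SE 0.17, limma adjusted p = 1.87e-05), or 1.82 without triple mutant replicate 1. For each of the 8 genes that rose, the triple mutant libraries did not overlap the wild type libraries, as for 32.7% of all tested genes in the upward direction. Each of the 8 kept its call in all 21 alternative settings.

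Against pil1Δ, the triple mutant values were close to those against the wild type, with which the triple mutant libraries are shared. The same 8 members were called higher, where the rule called 30.8% of all tested genes higher, and the median log2 fold change of the 9 members was 2.08. COX5B differed by 0.28 (SE 0.15, limma adjusted p = 0.130). It was called in 2 of 21 alternative settings, both with the replicate number as a block (limma adjusted p = 0.0199, and 0.0337 with only these groups). In pil1Δ against the wild type, 0 of the 9 members passed the limma test, at adjusted p = 1 each, and 0.017% of all tested genes did. That is 1 gene of 5886 by limma, the deleted PIL1 itself. It was 1 gene by edgeR and 2 by DESeq2, and 59 had an unadjusted limma p under 0.05. The members' log2 fold changes lay between -0.09 for COX5B and 0.04 for COX4, and their median was -0.03. The widest 95% confidence intervals of these log2 values reached down to -0.58 for COX9 and up to 0.58 for COX5A in this fit, whose error is shared with the triple mutant libraries. Same-numbered wild type and pil1Δ libraries deviated together, and a fit of these strains alone with the replicate number as a block gave intervals between -0.22 for COX5B and 0.16 for COX4. No member passed in that fit either (lowest limma adjusted p = 0.511, for COX5B).

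**Figure D2:**
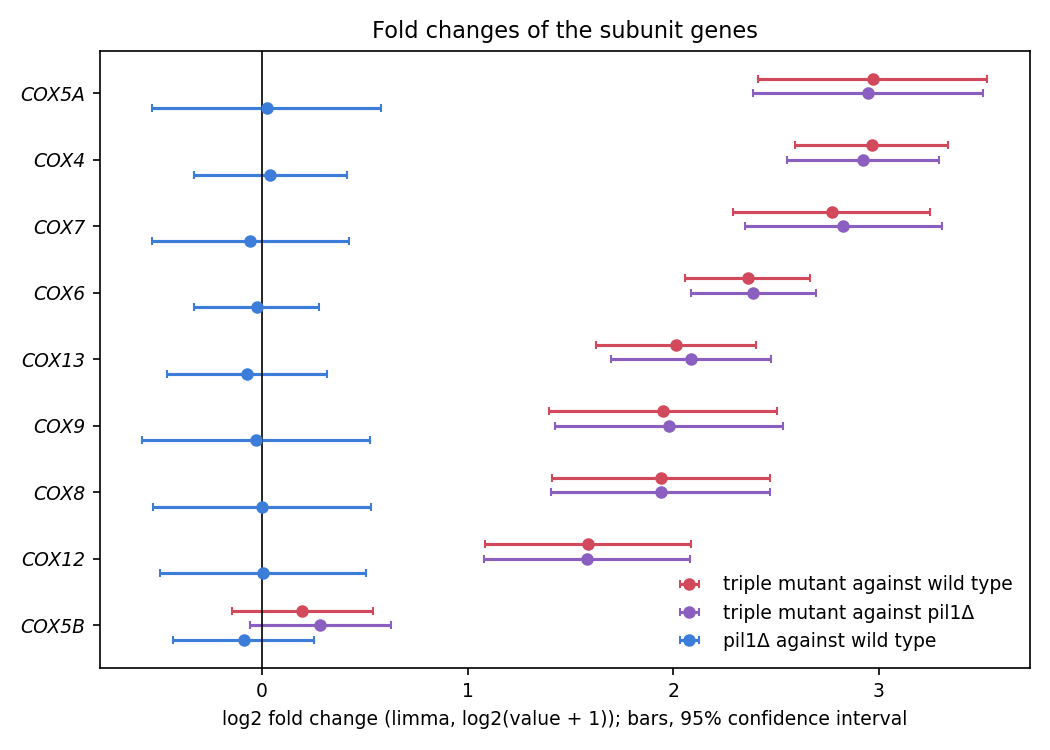
Log2 fold changes of the 9 subunit genes from limma on log2(value + 1), ordered by the triple mutant against the wild type. Points are estimates from 3 libraries a strain, and bars are 95% confidence intervals. The 8 upper genes lie between 1.58 and 2.97 in the triple mutant against the wild type, COX5B lies at 0.20, and the pil1Δ values lie near 0.

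The plot of log2 fold changes by gene places COX5B apart from the rest, and the direct comparison of the isoforms was made as a ratio within each library, which no scaling between libraries can change. Per kilobase of coding sequence, COX5B made up 68.3%, 72.8% and 72.8% of the COX5A and COX5B total in wild type replicates 1 to 3. The share was 66.4%, 70.1% and 72.6% in pil1Δ and 17.2%, 31.9% and 33.2% in the triple mutant. COX5B was thus the more abundant isoform in all 6 wild type and pil1Δ libraries, and COX5A in all 3 triple mutant libraries. The mean share was 71.3% ± 2.57 (SD, n = 3) in the wild type and 27.4% ± 8.87 (SD, n = 3) in the triple mutant. The log2 ratio of COX5B to COX5A was 1.32 ± 0.18 (SD, n = 3) in the wild type, 1.21 ± 0.21 (SD, n = 3) in pil1Δ and -1.46 ± 0.70 (SD, n = 3) in the triple mutant.

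The ratio was 6.84-fold lower in the triple mutant than in the wild type (exact permutation p = 0.1, two-sided, the smallest that 3 against 3 libraries allow, and 0.15 adjusted over the 3 comparisons of this ratio). Without triple mutant replicate 1, the library with the lowest ratio, it was 5.17-fold lower. Against pil1Δ the triple mutant ratio was 6.34-fold lower, with the same exact permutation p. Between pil1Δ and the wild type the log2 ratio differed by -0.11 (exact permutation p = 0.5, two-sided). It was lower in pil1Δ in 3 of 3 same-numbered pairs, by -0.13, -0.19 and -0.013, and the exact paired permutation p was 0.25, the smallest that 3 pairs allow.

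**Figure D3:**
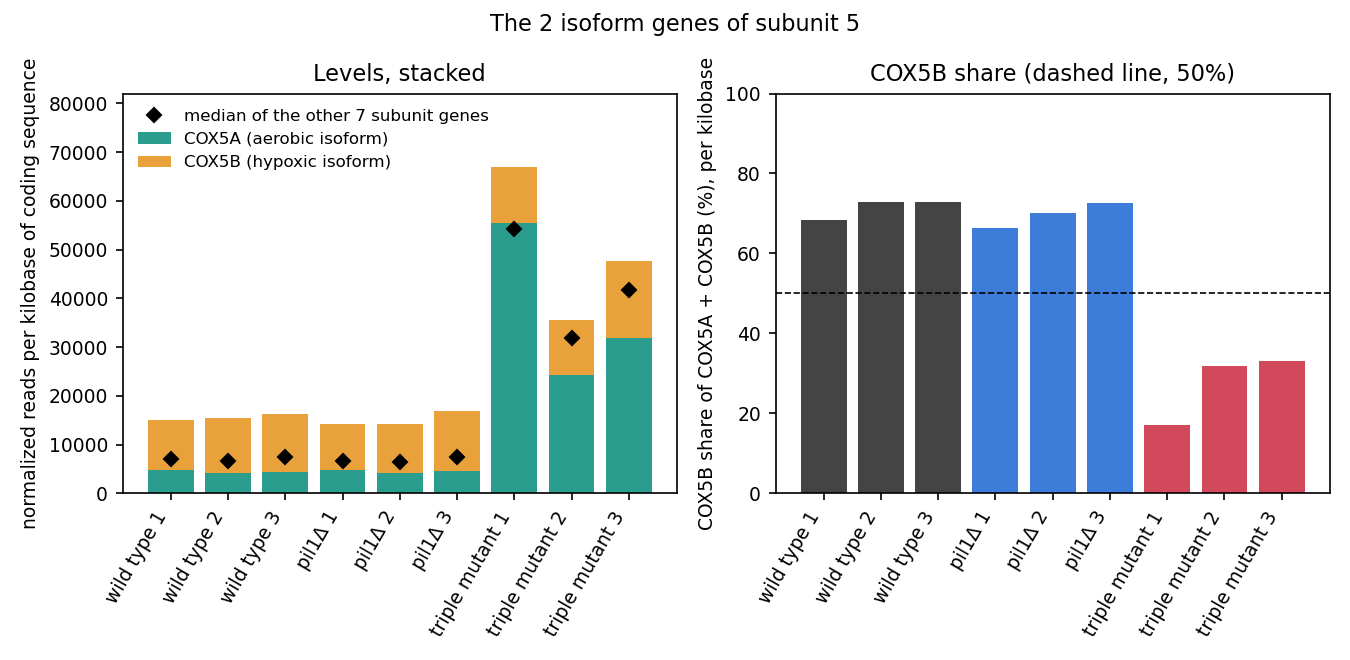
Left, normalized reads per kilobase of coding sequence of COX5A and COX5B, stacked, with a diamond at the median of the other 7 subunit genes in that library. Right, the COX5B share of the COX5A and COX5B total, in percent. The share lies at 66.4% to 72.8% in wild type and pil1Δ libraries and at 17.2% to 33.2% in triple mutant libraries. The stack is 2.16 to 2.31 times the diamond in wild type libraries and 1.12 to 1.24 times it in triple mutant libraries.

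The stacked levels in the plot of COX5A and COX5B also set subunit 5 against the other subunits. The enzyme holds 1 copy of subunit 5, from either gene. Levels per kilobase of different subunit genes depend on the coding length by which each gene was divided. In the wild type, the summed COX5A and COX5B level per kilobase was 2.16, 2.31 and 2.20 times the median level of the other 7 subunit genes. It was 2.16, 2.17 and 2.25 times that median in pil1Δ and 1.24, 1.12 and 1.14 times in the triple mutant. The summed level was 3.21-fold higher in the triple mutant than in the wild type, in means of normalized reads per kilobase. The median level of the other 7 was 6.06-fold higher, but it falls on different genes in the strains: the 7 genes' own folds of means ran from 3.10 to 7.95, with a median of 4.13. With the geometric mean of the 7 as the reference, which was 4.83-fold higher, the summed level was 2.01 ± 0.0970 (SD, n = 3) times it in the wild type and 1.34 ± 0.0176 (SD, n = 3) times in the triple mutant. COX5A alone was 0.636 ± 0.0437 (SD, n = 3) times the median of the other 7 in the wild type and 0.849 ± 0.151 (SD, n = 3) times in the triple mutant. COX5B alone was 1.58 ± 0.103 (SD, n = 3) times it in the wild type and 0.316 ± 0.0900 (SD, n = 3) times in the triple mutant.

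The order of levels per kilobase differed between the strains. It rests on division by coding length, which is 180 bases for COX9 and 456 for COX5B. Before that division, the wild type means were 2313 normalized reads for COX9 and 5072 for COX5B. In the wild type, COX9 was highest, at 12852 normalized reads per kilobase, followed by COX5B at 11122, COX13 at 10315, COX12 at 7849, COX6 at 6813, COX7 at 6759, COX8 at 6100, COX4 at 5762 and COX5A at 4462. Of the neighbours in that order, COX5B and COX13, COX6 and COX7, COX7 and COX8, and COX8 and COX4 overlapped between libraries. The order of means in pil1Δ was the same. In the triple mutant the order ran from COX9 at 52660 through COX7 at 47784, COX4 at 45820, COX13 at 42574, COX5A at 37134, COX6 at 35550, COX8 at 24437 and COX12 at 24319 to COX5B at 12881. All neighbours there overlapped except COX12 and COX5B. COX5A thus held the lowest place in the wild type and the fifth in the triple mutant, and COX5B the second and the lowest. Leaving out both subunit 5 genes, the highest mean was 2.23 times the lowest in the wild type and 2.17 times in the triple mutant.

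**Figure D4:**
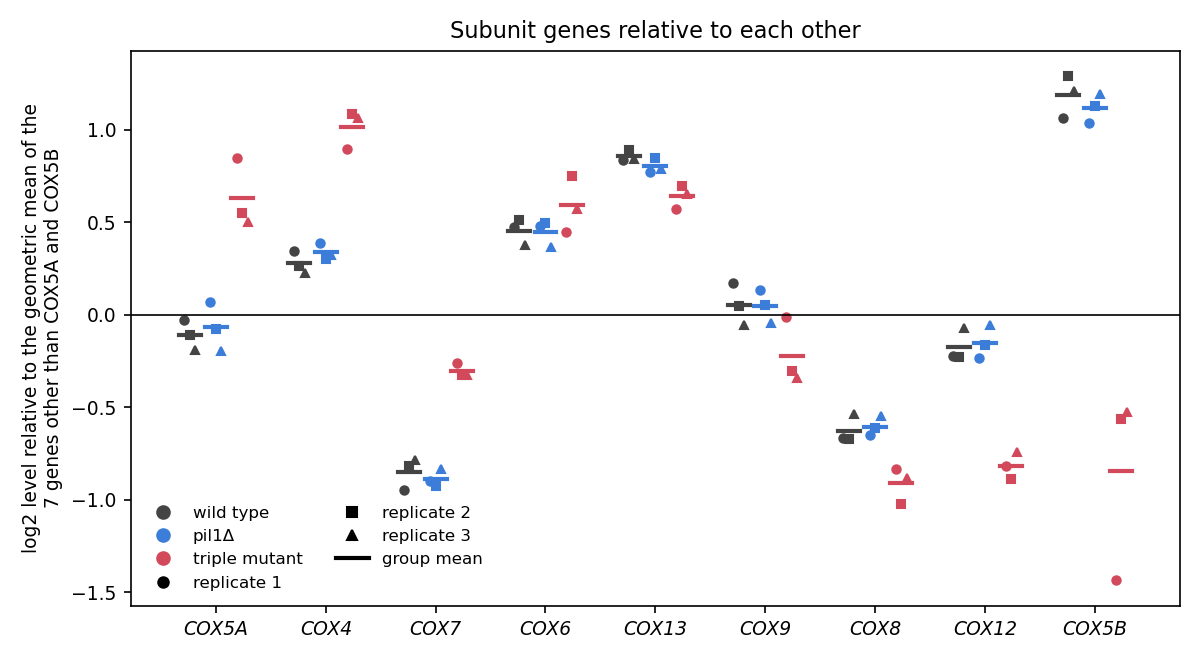
Log2 level of each subunit gene relative to the geometric mean of the 7 genes other than COX5A and COX5B in the same library. Each point is 1 library, colours give the strain, shapes the replicate number, and lines the mean of 3 libraries. COX5B lies at 1.19 in the wild type and at -0.84 in the triple mutant, while COX5A and COX4 each lie 0.74 higher in the triple mutant.

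Within a library the levels of the subunit genes relative to each other also differed, as the plot of levels relative to the 7 other subunit genes shows. In the triple mutant minus the wild type, COX5A and COX4 differed by 0.74 each on this log2 scale and COX7 by 0.54. COX12 had the lowest value of the 8 genes that rose, at -0.64, and COX8 and COX13 differed by -0.29 and -0.22. COX6 differed by 0.14 and COX9 by -0.28, and for both the triple mutant and wild type libraries overlapped on this scale. COX5B differed by -2.03. For every member other than COX6 and COX9, the triple mutant and wild type libraries did not overlap on this scale. The values of the 7 reference genes sum to 0 by construction, so some must lie above and some below 0, and the differences are given as a description, without a test.

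COX26 and the mitochondrial core genes are the other subunit genes of the enzyme in these data. COX26 (YDR119W-A), for a small membrane subunit described later than the others, had 993, 1740 and 1130 normalized reads in the wild type, 879, 1176 and 1265 in pil1Δ, and 11165, 9161 and 12646 in the triple mutant. It rose by 3.12 on the log2 scale (SE 0.22, limma adjusted p = 8.03e-06), more than any of the 9 members. COX1, COX2 and COX3 encode the catalytic core in mitochondrial DNA, whose transcripts carry no long poly(A) tail in yeast, and poly(A) RNA was selected here. COX1 ranged from 35.0 to 176 normalized reads in the wild type and from 93.6 to 1121 in the triple mutant, and overlaps 6 other annotated genes, so its value is uncertain. Its log2 fold change of 1.81 (SE 0.98) did not pass (limma adjusted p = 0.141), but passed at 2.74 without triple mutant replicate 3 and at 2.16 by DESeq2 (adjusted p = 0.0482). COX3 had 7.34 to 28.4 normalized reads in the triple mutant, with a log2 fold change of 0.16 (limma adjusted p = 0.802), and COX2 was below the minimum mean.

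Other gene pairs with an aerobic and a hypoxic form did not follow one course. For CYC1 and CYC7, the isoforms of cytochrome c, the substrate of the enzyme, both genes rose. CYC1 had 273, 290 and 191 normalized reads in the wild type and 4291, 1289 and 1541 in the triple mutant, a log2 fold change of 3.04 (limma adjusted p = 0.000186). CYC7 had 1313, 1534 and 1921 in the wild type and 3978, 3627 and 5272 in the triple mutant, a log2 fold change of 1.43 (limma adjusted p = 0.000561). The hypoxic CYC7 share per kilobase was 82.3%, 83.6% and 90.6% in the wild type and 47.2%, 73.1% and 76.7% in the triple mutant. CYC7 was thus the more abundant form in all wild type libraries and in 2 of the 3 triple mutant libraries, with replicate 1 again the library with the lowest hypoxic share.

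**Figure D5:**
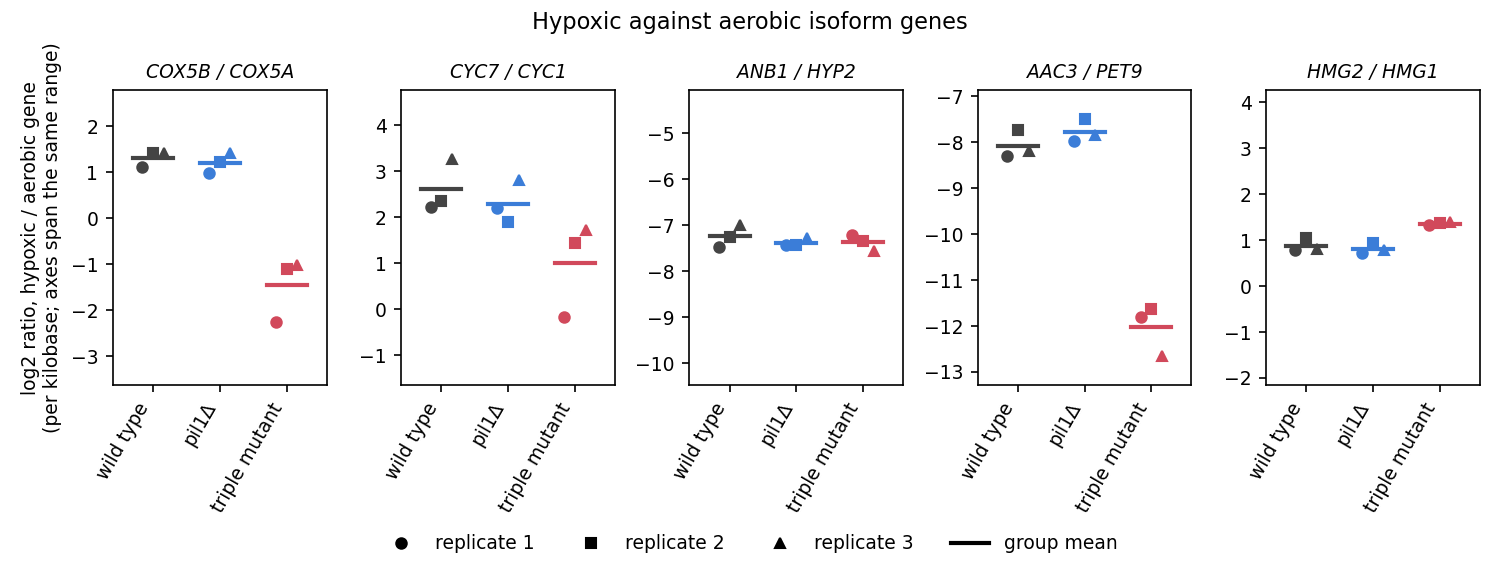
Log2 ratio of the hypoxic to the aerobic gene per kilobase in each library, for 5 isoform pairs. Each panel spans the same range of log2 units around its own centre, points are libraries and lines are means of 3. The ratio is lower in the triple mutant for COX5B over COX5A, CYC7 over CYC1 and AAC3 over PET9, higher for HMG2 over HMG1, and overlapping for ANB1 over HYP2.

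Of the other pairs in the plot of hypoxic to aerobic ratios, PET9 and AAC3 encode ADP/ATP carriers of the inner membrane, with coding sequences 79.4% identical. PET9 rose by 2.38 (limma adjusted p = 3.75e-05), and AAC3 fell by 1.51 (limma adjusted p = 0.00211), from a low level of 40.2, 45.1 and 42.3 normalized reads in the wild type to 23.9, 13.6 and 8.85. HMG1 and HMG2 encode HMG-CoA reductases of sterol synthesis. There the hypoxic gene HMG2 rose by 0.73 (limma adjusted p = 0.000115), and the mean log2 ratio of HMG2 to HMG1 went from 0.87 to 1.36. HMG1 had a log2 fold change of 0.25 (limma adjusted p = 0.0204), which was lost in several alternatives, down to 0.02 with total-read scaling. ANB1 and HYP2 encode forms of the translation factor eIF5A. They are 91.1% identical, so their values are uncertain, and neither passed the test (log2 fold changes -0.31 and -0.18, limma adjusted p = 0.196 and 0.114).

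A list of hypoxic genes held these hypoxic forms other than COX5B. It also held ROX1, a repressor of such genes, which is counted again among the regulators below. Among its 16 tested genes, 3 were higher in the triple mutant, 3 were lower and 10, ROX1 among them, did not pass the limma test. The background was 30.1% higher and 30.9% lower over all tested genes. The median log2 fold change of the list was -0.11. HMG2, CYC7 and TIR2, for a cell wall mannoprotein, were the higher ones, with TIR2 at 1.29. AAC3 and the cell wall mannoprotein genes TIR4 at -0.64 and TIR3 at -0.69 were the lower ones. Without triple mutant replicate 1, 5 genes of the list were lower, beside 1755 of all 5886 tested genes. With total-read scaling 6 were lower, beside 2377 of the 5886.

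Genes for regulators of the oxygen and heme response were read beside the members. HAP4, the activating subunit of the CCAAT-binding complex, had 11736, 5723 and 11972 normalized reads in the wild type, 14227, 4861 and 11735 in pil1Δ, and 70495, 52163 and 66289 in the triple mutant. Replicate 2 was the lowest in every strain. HAP4 rose by 2.75 on the log2 scale (SE 0.41, limma adjusted p = 0.00043). HAP3, a DNA-binding subunit of the complex, rose by 1.11 (limma adjusted p = 7.3e-05). HAP2 and HAP5, the remaining subunits, had smaller rises of 0.53 and 0.35 (limma adjusted p = 0.00385 and 0.00955), and both calls were lost with total-read scaling. ROX1, the repressor of hypoxic genes, had 9247, 6902 and 10511 normalized reads in the wild type and 15123, 9025 and 9771 in the triple mutant. Its log2 fold change of 0.33 did not pass (limma adjusted p = 0.247).

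MOT3, for a repressor of hypoxic genes that acts with Rox1, fell by 0.65 on the log2 scale (limma adjusted p = 0.0012). IXR1, for an HMG-box protein that regulates hypoxic genes, COX5B among them, rose by 1.25 (limma adjusted p = 0.000643). It had 4371, 3801 and 4642 normalized reads in the wild type and 13747, 7448 and 10170 in the triple mutant. CYC8 and TUP1 encode the general corepressor that Rox1 recruits. CYC8 had a log2 fold change of 0.35 (limma adjusted p = 0.0311), a call lost when any 1 wild type library or triple mutant replicate 1 or 3 was left out. TUP1 had one of 0.00 (limma adjusted p = 0.978). HAP1, a heme-responsive activator, differed by -0.22 (limma adjusted p = 0.185) and was called lower with total-read scaling, at -0.45. In all, 6 of these 10 regulators were higher and 1 was lower, where 60.9% of all tested genes were called in either direction. With total-read scaling 3 were higher and 2 lower, beside 1029 and 2377 of all 5886 tested genes. Without triple mutant replicate 1, 5 were higher and 1 lower, beside 1736 and 1755 of the 5886. None passed in pil1Δ.

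Genes for factors that assemble cytochrome c oxidase formed a longer list. Of 35 tested assembly genes, 25 were higher in the triple mutant, 2 were lower and 8 did not pass the limma test, where 30.1% of all tested genes were higher and 30.9% lower. The median log2 fold change was 0.64 against 2.01 for the 9 subunit genes. With total-read scaling, 19 were higher, beside 1029 of all 5886 tested genes, and the median was 0.42. Without triple mutant replicate 1, 23 were higher, beside 1736 of the 5886, and the median was 0.58. The smallest p-values belonged to COA2 at 1.51, COX14 at 1.43, COX15, for an enzyme of heme A synthesis, at 1.36, and RCF1, for a factor that associates with respiratory supercomplexes, at 1.08. The genes called lower were PET54 at -0.42 and MSS18 at -0.31, which act in expression and splicing of mitochondrial COX transcripts (limma adjusted p = 0.0174 and 0.00928).

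Subunit genes of the neighbouring enzymes were also higher. All 9 tested nuclear genes of the cytochrome bc1 complex, which hands electrons to cytochrome c, were higher, with log2 fold changes of 1.80 to 2.48 and a median of 2.28, beside 30.1% of all tested genes. Among them, COR1 and QCR2, the core proteins, rose by 2.21 and 2.36, RIP1, the iron-sulfur protein, by 2.28, and CYT1, cytochrome c1, by 1.98. All 14 tested nuclear genes of ATP synthase were higher too, between 1.65 and 2.46 with a median of 2.00, such as ATP1 at 2.20, ATP5 at 2.46, ATP16 at 2.39 and ATP20 at 2.36. Without triple mutant replicate 1 all of both lists were still called higher, with medians of 2.13 and 1.76. The range over the 8 rising members of cytochrome c oxidase, 1.58 to 2.97, was wider than either. None of the genes of these lists passed in pil1Δ, and the lists, like the members, were chosen with earlier results of these data known.

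The genes most like the members in profile were found by the root mean square difference of log2 values, centred on each gene's wild type mean, over the 9 libraries. Nearest to the mean of the 8 members other than COX5B among 5645 genes were QCR7 at 0.0551, SDH3 at 0.0637, QCR10 at 0.0711, ATP3 at 0.0774 and MIR1 at 0.0846. QCR7 and QCR10 encode bc1 subunits, SDH3 a subunit of succinate dehydrogenase, ATP3 a subunit of ATP synthase, and MIR1 the mitochondrial phosphate carrier. Each lay nearer to that mean than any member, of which COX6 was the nearest at 0.0937 and COX12 the farthest of the 8 at 0.431, while COX5B lay at 1.25. Nearest to COX5B were TRS23 at 0.0976, HHT1 at 0.0981, TRI1 at 0.101, MCO6 at 0.101 and TML25 at 0.103. TRS23 encodes a subunit of the TRAPP transport complexes. HHT1, a histone gene, is 93.6% identical to HHT2, so its value is uncertain.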

How the data were processed

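Polyadenylated RNA was measured in 9 libraries, 3 each of wild type, pil1Δ and seg1Δ nce102Δ pil1Δ. The submitters' processing notes name GSNAP, DESeq2, DESeq and genome build R64. Neither the counting tool nor the strand setting is given in these sources. The first table deposited by the authors holds a signal, the read count of each of 6215 genes divided by 1 size factor per library (0.791 to 1.34). In it 100% of values were whole multiples of 1 read at a tolerance of 1e-06, which gave back the counts. The second deposited table holds log2 values after a transformation that is not named, and was used as an alternative. All sample columns were used.

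Since the values were normalized, limma 3.58.1 in R 4.3.3 (trend, robust) on log2(value + 1) was the test, with all 9 libraries and group means. It covered the 5886 genes with a mean of at least 10, with two-sided p-values adjusted by Benjamini-Hochberg. A fold change on this scale understates the change of low genes. Alternatives were TMM and total-read scaling, the transformed table, other filters, a pseudocount of 5, the replicate block, only the groups compared, edgeR 4.0.16, DESeq2 1.42.0 and libraries left out. The isoform ratio was tested by exact permutation (SciPy 1.17.1). P-values rest on the spread between cultures that the labels call biological replicates. Replicates of a strain differed by far more than counting error (chi-square divided by degrees of freedom, 36.1 to 396.5). The highest values belonged to triple mutant replicate 1, at 396.5 against replicate 2 and 311.9 against replicate 3. Between triple mutant replicates 2 and 3 the value was 52.2.

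Same-numbered wild type and pil1Δ libraries deviated together (r = 0.639, 0.833 and 0.579 over genes), so these numbers pair the libraries. That rests on this check, since the labels do not state it. The values given are nonetheless from the fit without the block unless the pairing is named, and a paired permutation of the isoform ratio was added after seeing the data, as was the geometric mean as a reference for subunit 5.

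The text names all members, COX26, the mitochondrial core genes, isoform pairs, regulators, up to 4 genes of each list with the smallest p, and the 5 nearest profiles. TIR3, AAC3, PET54 and MSS18 complete small counts, LYS2 checks a label, and all 5 were named after their values were seen. The members and lists were chosen with earlier results of these data known. Identifiers of 6212 genes were found in the R64 annotation, and sequence similarity was measured with BLAST+ 2.17.0 and Biopython 1.88.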

Additional observations from a re-analysis of the deposited data

How the results depend on the processing

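The direction and call of the 8 rising members against the wild type held in all 21 alternatives, and their counts and medians in the triple mutant comparisons stayed within 1.5 times or the spread between libraries. The COX5B to COX5A ratio stayed 5.17-fold to 7.99-fold lower than in the wild type with single libraries left out, and was 5.76-fold lower in the transformed table. Under total-read scaling COX5B turned to -0.028, COX3 to -0.053, TUP1 to -0.22, TRS23 to -0.039 and TRI1 to -0.033. The regulators came to 3 higher and 2 lower under it, beside 1029 and 2377 of all 5886 tested genes. TUP1 was also -0.014 with TMM and -0.0079 without wild type 1 and triple mutant 1. With single libraries left out, TUP1 ranged from -0.011 to 0.014, COX3 from -0.22 to 0.69 and COX5B from 0.041 to 0.28. In pil1Δ against the wild type, DESeq2 called 2 genes, against 1 by limma. With single libraries left out, the members' median ranged from -0.10 to 0.016, COX4 from -0.030 to 0.10, COX5A from -0.019 to 0.072, COX7 from -0.16 to 0.015, COX8 from -0.10 to 0.084, COX9 from -0.072 to 0.036, COX12 from -0.12 to 0.093 and COX26 from -0.36 to 0.047. COX8 there was -0.0023 with TMM, -0.00032 with edgeR and -0.014 without wild type 1 and triple mutant 1, COX12 was -0.00021 with TMM and -0.015 without those libraries, COX9 was 0.0060 with total reads and 0.036 without those libraries, and COX6 was 0.0076 with total reads. None of the values that turned sign passed the test on either side, and the cause was not tested.

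Same-numbered triple mutant libraries correlated at 0.0499, 0.191 and 0.362 with the wild type and at 0.0694, 0.237 and 0.439 with pil1Δ. These values were lowest for replicate 1 and highest for replicate 3, and all lay below those between wild type and pil1Δ. The numbers were therefore not taken as pairs for the triple mutant, though replicate 3 deviated in part together. With the replicate block, the triple mutant against the wild type gave 4024 called genes (3330 with only these groups in the fit), and 3586 without it. The block left every member's call against the wild type as it was, in both mutants. It added a call for COX5B in the triple mutant against pil1Δ (0.28, limma adjusted p = 0.0199, and 0.0337 with only these groups) and for COX1 against the wild type (limma adjusted p = 0.00152 and 0.00781). Depth was not limiting for the members, at 1292 reads or more per library, but it was for COX2 and COX3.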
